A study of Homo sapiens with 12 samples.

Results

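The quantity described here is the genotype difference in the response of HCT116 cells to inauhzin (INZ), a small molecule that activates p53. It was computed for each array feature as the log2 change from DMSO to INZ in p53+/+ cells minus the same change in p53-/- cells, over all 12 arrays and all 45033 features of the study, of which 18866 (41.9%) carried a gene name and stood for 17185 genes. A positive difference means that INZ raised the transcript more, or lowered it less, in p53+/+ cells; it does not say by itself which genotype responded. HCT116 is a human colon cancer line; the p53+/+ cells carry wild-type p53 and the p53-/- cells are labelled p53 null. Each genotype was given 4 μM INZ or DMSO, and total RNA was taken after 18 hours from what the labels call biological replicates, 3 per group, and hybridised to one-colour NimbleGen arrays. Below, untreated means given DMSO without INZ, since no group went without either. P values measure the spread between these replicates. Whether the p53-/- cells derive from 1 clone is not given in the sources used here, so a difference between the genotypes is a difference between these 2 cell populations.

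p53 is a transcription factor that is held low by the ubiquitin ligase MDM2 and, once stabilised, switches on genes for cell cycle arrest, DNA repair and apoptosis. Cells also have a p53-independent programme of stress transcription, the integrated stress response, in which the factor ATF4 raises genes for amino acid supply and redox balance together with the death-associated genes DDIT3, TRIB3 and CHAC1. Several genes, among them GDF15, SESN2 and ATF3, are known targets of both.

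Epithelial markers were high, with KRT8 between 14.33 and 14.78 (log2 intensity) and EPCAM between 10.71 and 12.19, and the markers CDX2 and CDH1 were above the median feature (log2 6.41) on all 12 arrays, VIL1 on 1. Of the leukocyte markers PTPRC, CD3E and LYZ were above the median feature on 0 arrays, CD14 and ITGAM on 1 and NKG7 on 2. Of the mesenchymal markers LUM, PDGFRB and THY1 were above it on 0 arrays, COL1A2, COL3A1, DCN and VIM on 1, PDGFRA on 2 and COL1A1, at 8.85 to 10.60, on 12. The first p53+/+ DMSO array and the third p53+/+ INZ array had the lowest mean correlations to the rest of their groups, 0.913 and 0.931. The latter was close to the other p53+/+ arrays, at 0.935 to 0.951, and the p53-/- arrays had 0.967 to 0.975. The same 2 arrays had the lowest weights estimated by limma, 0.305 and 0.373 against 0.871 to 2.53. They are called the arrays that stood apart, and values without them are given beside several of the results.

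The difference passed the test in limma, at a Benjamini-Hochberg adjusted p under 0.05 over all features, for 8 features with a positive sign (0.0178% of features) and 0 with a negative sign (0%). The 8 features were 2 of TP53I3, 1 each of ATF3, GDF15 and CDKN1A, and the transcripts BC112941, AF218028 and BC008962, to which no gene name could be given. Their differences ran from 2.44 to 4.47 on the log2 scale, against a standard deviation of 0.55 over all genes. At an unadjusted p under 0.05 the difference was positive for 495 genes (2.88%) and negative for 347 (2.02%), and over all features 2119 (4.71%) reached that level. That share is no larger than the threshold alone gives if no feature differs, so these counts do not show that so many genes differ. Counted on the brightest feature of each gene, 3 genes passed the adjusted test (0.0175%), since the passing feature of CDKN1A is the dimmer of its 2. The median half-width of the unadjusted 95% interval of the difference was 1.06. The adjusted test asked for more, and the smallest difference that passed was 2.44.

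**Figure D1:**
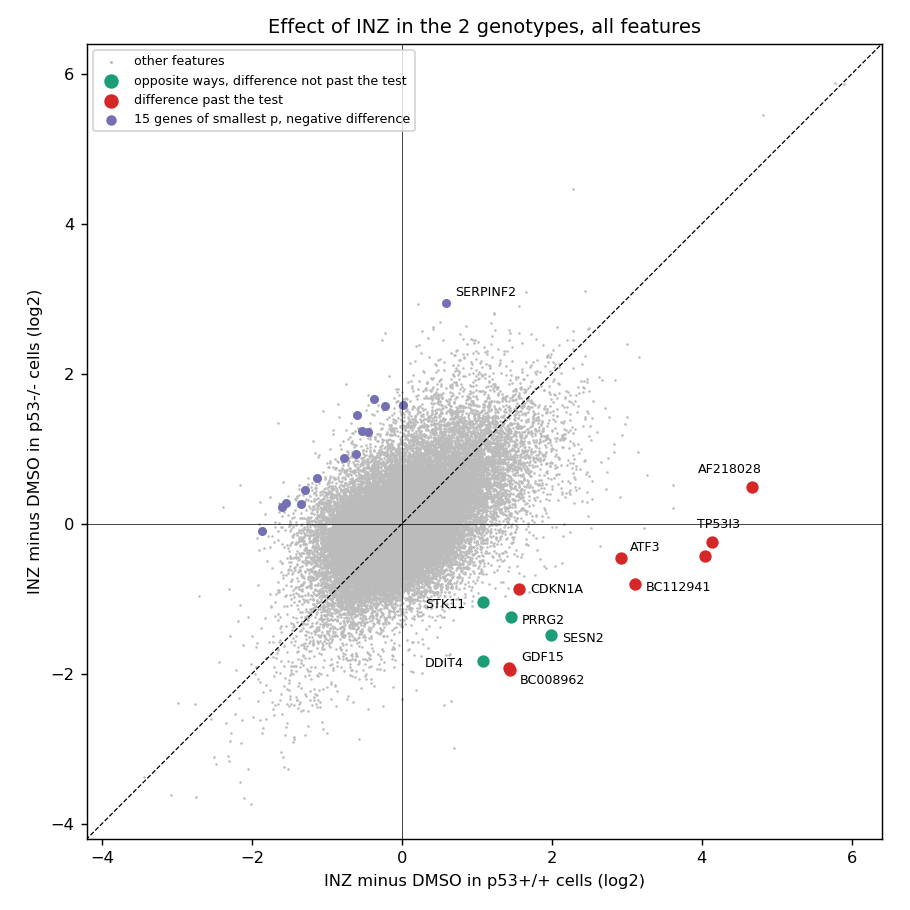
Log2 change from DMSO to INZ in p53+/+ cells (x axis) and in p53-/- cells (y axis) for all 45033 features, each the difference of 2 means of 3 arrays; the dashed line marks equal change. The 8 features past the test (red) all lie below the line, with AF218028 farthest right at 4.67 in p53+/+ cells and GDF15 and BC008962 near -1.9 in p53-/- cells, the 4 other features of opposite change (green) lie with them, and the 15 genes of smallest p with a negative difference (purple) lie above it.

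TP53I3, a p53 target that codes for a quinone oxidoreductase linked to oxidative stress, had the largest difference among the genes that passed. Its brighter feature read 10.08, 10.13 and 9.79 in p53+/+ cells with DMSO and 14.20, 13.90 and 14.03 with INZ. In p53-/- cells it read 9.15, 9.36 and 9.55 with DMSO and 8.85, 9.51 and 8.42 with INZ. Every p53+/+ INZ array lay far above all other arrays, and the p53-/- groups overlapped. TP53I3 rose 16.5-fold in p53+/+ cells (adjusted p = 1.39e-05) and its change in p53-/- cells was -0.43 (adjusted p = 0.583), a difference of 4.47 with a 95% interval of 3.57 to 5.37 (adjusted p = 0.000982). The other TP53I3 feature gave 4.37 (3.55 to 5.20).

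CDKN1A codes for the cyclin-dependent kinase inhibitor through which p53 arrests the cell cycle, and was measured by 2 features. The one that passed read 12.99, 13.05 and 13.23 in p53+/+ DMSO, 14.55, 14.55 and 14.86 in p53+/+ INZ, 12.88, 12.63 and 12.44 in p53-/- DMSO and 12.04, 11.61 and 11.68 in p53-/- INZ. INZ arrays lay above all DMSO arrays in p53+/+ cells and below them in p53-/- cells. It rose 2.96-fold in p53+/+ cells (adjusted p = 0.0127), and the change of -0.88 in p53-/- cells did not pass (adjusted p = 0.115). The difference of 2.44 (1.68 to 3.21) had an adjusted p of 0.0465, which went to 0.0808 to 0.207 when any 1 array was left out. The brighter CDKN1A feature gave 2.32 (1.44 to 3.20, adjusted p = 0.126). The dimmer feature also missed the threshold with the replicate block (adjusted p = 0.115), with 1 variance per genotype (0.0571) and without the 2 arrays that stood apart (0.0918), while the brighter CDKN1A feature passed with a mean-variance trend (adjusted p = 0.00542) and the mean of both passed too. The size was alike in both.

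GDF15, a secreted stress cytokine of the TGF-beta family, moved in opposite directions in the 2 genotypes. It read 12.56, 12.71 and 12.09 in p53+/+ DMSO and 14.19, 13.85 and 13.65 in p53+/+ INZ. The p53-/- arrays read 12.92, 13.18 and 12.99 with DMSO and 11.23, 10.90 and 11.12 with INZ, so that the p53-/- DMSO arrays were the higher of the untreated groups and the p53-/- INZ arrays the lowest of all. GDF15 rose 2.72-fold in p53+/+ cells (adjusted p = 0.0262) and fell 3.86-fold in p53-/- cells (adjusted p = 0.00252). The difference was 3.39 (2.58 to 4.20, adjusted p = 0.00322), a ratio of 10.5 between the fold changes. The unnamed transcript BC008962 had nearly the same values: INZ gave 1.43 in p53+/+ and -1.92 in p53-/- cells, both past the test (adjusted p = 0.0393 and 0.00463), and its difference was 3.34 (2.45 to 4.23). GDF15 and BC008962 were the only 2 features for which both changes passed the test with opposite signs, against 128 for which both passed with the same sign. Because BC008962 has no gene name here, it could be a further measure of GDF15. The 2 features, here and in the other counts, are therefore not to be read as 2 genes.

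ATF3, a stress-induced factor of the ATF/CREB family, started lower in p53+/+ cells. It read 7.30, 7.55 and 7.94 in p53+/+ DMSO and 10.43, 10.41 and 10.72 in p53+/+ INZ, and 9.17, 8.79 and 9.15 in p53-/- DMSO and 8.55, 8.64 and 8.55 in p53-/- INZ. Untreated p53-/- cells lay above untreated p53+/+ cells on every array, and INZ reversed that order. ATF3 rose 7.60-fold in p53+/+ cells (adjusted p = 0.000136), its change in p53-/- cells was -0.46 (adjusted p = 0.480), and the gap p53+/+ minus p53-/- went from -1.44 with DMSO (adjusted p = 0.0396) to 1.94 with INZ (adjusted p = 0.00358). The difference, which is the second gap minus the first, was 3.38 (2.60 to 4.17, adjusted p = 0.00321).

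The other 2 unnamed transcripts rose in p53+/+ cells, 8.66-fold for BC112941 (adjusted p = 0.000302) and 25.5-fold for AF218028 (adjusted p = 1.25e-05), and had changes of -0.80 and 0.49 in p53-/- cells that did not pass (adjusted p = 0.246 and 0.579). BC112941 read 7.51, 6.83 and 7.21 in p53+/+ DMSO, 10.20, 10.12 and 10.57 in p53+/+ INZ, 6.90, 6.66 and 7.0 in p53-/- DMSO and 6.53, 5.56 and 6.07 in p53-/- INZ, a difference of 3.92 (3.0 to 4.83). AF218028 read 6.10, 5.67 and 5.78, then 10.63, 10.98 and 9.96 in p53+/+ cells, and 6.55, 6.53 and 5.88, then 7.01, 7.10 and 6.30 in p53-/- cells, a difference of 4.19 (3.17 to 5.21). In both, the p53+/+ INZ arrays stood alone, and without INZ the features were near the middle of the array.

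Apart from CDKN1A, the 7 other features passed in every alternative that was run on features: with a mean-variance trend, without dim features, after quantile normalisation or median centring, with the replicate block, with array weights, with 1 variance per genotype, with each array's lower quartile in the model, without any 1 array, and without the 2 arrays that stood apart.

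Beyond the genes that passed, the 15 genes of smallest p with a positive difference had differences of 2.13 to 4.47 and adjusted p up to 0.126. For 10 of them INZ raised the level in p53+/+ cells by the test (0.692% of all genes rose there), for 4 it lowered the level in p53-/- cells (1.16% of all genes fell there), GDF15 did both, and SESN2 and PRRG2 passed in neither genotype. Because these genes were ranked by the difference, such counts only describe what it is made of. They fall into the p53 lists (TP53I3, CDKN1A, GDF15, TNFRSF10C, GADD45A, SESN2), the ATF4 list (CHAC1 and again SESN2) and the AP-1 list (ATF3), and 7 were in no list.

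**Figure D2:**
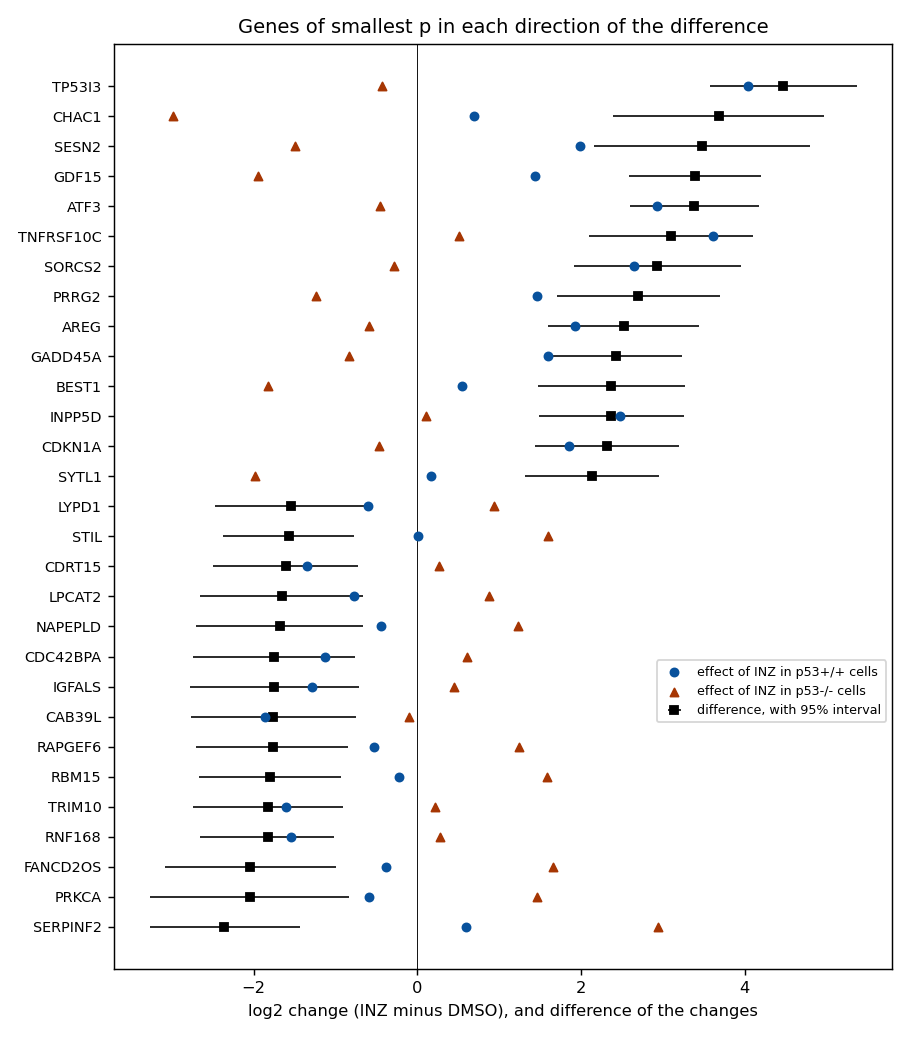
Of the 15 genes of smallest p with a positive difference 14, and the 15 with a negative one; black squares give the difference of the 2 changes (log2, with 95% intervals), blue circles the change from DMSO to INZ in p53+/+ cells and brown triangles that in p53-/- cells. CHAC1, SYTL1 and BEST1 owe a positive difference to a brown triangle far to the left (-2.99, -1.98 and -1.83), TNFRSF10C and INPP5D to a blue circle far to the right (3.61 and 2.48).

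Among p53 targets just outside the test, TNFRSF10C, a TRAIL receptor that lacks a death domain, read 6.37, 6.38 and 6.48 in p53+/+ DMSO and 9.84, 10.10 and 10.12 in p53+/+ INZ. In p53-/- cells it read 6.18, 7.03 and 6.71 with DMSO and 7.08, 6.55 and 7.82 with INZ. The p53+/+ INZ arrays stood clear of the rest and the p53-/- groups overlapped; TNFRSF10C rose 12.2-fold in p53+/+ cells (adjusted p = 0.000171) and the difference was 3.10 (2.10 to 4.10, adjusted p = 0.0557). GADD45A, a growth arrest and DNA damage gene, read 9.07, 9.40 and 9.30, then 10.93, 10.87 and 10.75 in p53+/+ cells, and 10.37, 10.49 and 10.42, then 9.99, 9.67 and 9.14 in p53-/- cells. INZ arrays lay above DMSO arrays in the one and below them in the other, and the difference was 2.42 (1.61 to 3.23, adjusted p = 0.0700).

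SORCS2 and INPP5D rose in p53+/+ cells and had smaller changes in p53-/- cells that did not pass. SORCS2, a sortilin-family receptor, gave 2.64 in p53+/+ and -0.29 in p53-/- cells, and INPP5D, a lipid phosphatase best known in blood cells, 2.48 and 0.11. AREG, which codes for the EGF receptor ligand amphiregulin, read 10.93, 11.84 and 11.53 in p53+/+ DMSO, 13.38, 13.08 and 13.61 in p53+/+ INZ, 12.89, 12.61 and 12.89 in p53-/- DMSO and 12.48, 12.35 and 11.79 in p53-/- INZ. AREG rose 3.80-fold in p53+/+ cells (adjusted p = 0.0113), where all INZ arrays lay above all DMSO arrays. In p53-/- cells all INZ arrays lay below all DMSO arrays, with a change of -0.59 that did not pass (adjusted p = 0.426), and the difference for AREG was 2.52 (1.60 to 3.44, adjusted p = 0.117).

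SYTL1 and BEST1 showed the reverse origin. SYTL1, a synaptotagmin-like protein of vesicle trafficking, read 10.92, 10.50 and 10.50 in p53+/+ DMSO, 10.53, 10.87 and 10.98 in p53+/+ INZ, 10.36, 10.55 and 9.93 in p53-/- DMSO and 8.34, 8.45 and 8.13 in p53-/- INZ. Only the p53-/- INZ arrays were low. SYTL1 fell 3.93-fold in p53-/- cells (adjusted p = 0.00241) with a change of 0.16 in p53+/+ cells, a difference of 2.13 (1.31 to 2.95, adjusted p = 0.126). BEST1, a chloride channel gene, fell 3.56-fold in p53-/- cells (adjusted p = 0.00621), from 7.43, 7.20 and 7.42 to 5.51, 5.44 and 5.60. Those INZ arrays lay within or below the range of untreated p53+/+ cells (5.74, 5.59 and 5.69). With INZ the p53+/+ arrays read 5.55, 6.34 and 6.75, a change of 0.54 that did not pass (adjusted p = 0.431). Apart from p53-/- DMSO, every BEST1 group mean lay below the median feature, where intensities are least certain.

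**Figure D3:**
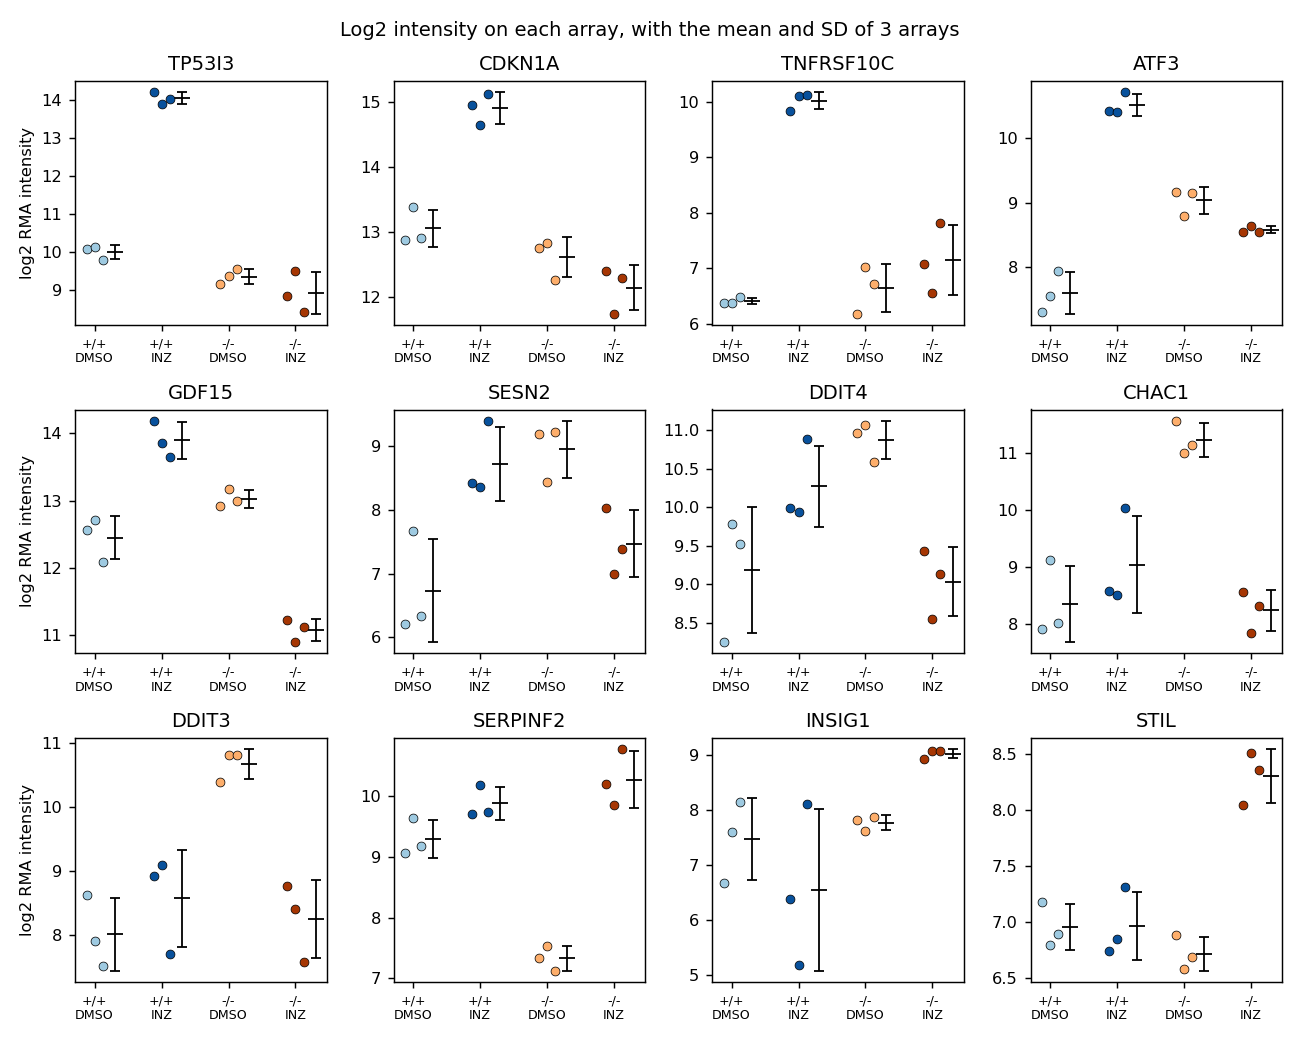
Log2 RMA intensity of 12 genes on each array (points) by genotype and treatment, with the mean and SD of 3 arrays (bars); each panel has its own scale and does not start at 0. TP53I3, CDKN1A, TNFRSF10C and ATF3 are highest in p53+/+ INZ, GDF15, SESN2 and DDIT4 are higher with INZ in p53+/+ cells and lower with INZ in p53-/- cells, CHAC1 and DDIT3 are highest in p53-/- DMSO (11.23 and 10.66), and SERPINF2, INSIG1 and STIL are higher with INZ in p53-/- cells.

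Genes that moved in opposite directions were counted where the change was at least 1 on the log2 scale in both genotypes and INZ and DMSO arrays did not overlap in either. Up in p53+/+ and down in p53-/- cells were 6 features (0.0133% of all): GDF15, BC008962, SESN2, PRRG2, DDIT4 and STK11. Down in p53+/+ and up in p53-/- cells were 0 features (0%). The same rule gave 428 features up in both (0.95%) and 320 down in both (0.711%). At a minimum of 0.5 the opposite counts were 51 and 21, and at 1.5 both were 0.

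SESN2, a sestrin that curbs growth signalling under stress and is a target of p53 and of ATF4, read 6.21, 7.67 and 6.33 in p53+/+ DMSO and 8.43, 8.36 and 9.40 with INZ. In p53-/- cells it read 9.20, 8.44 and 9.23 with DMSO and 8.03, 6.99 and 7.39 with INZ. The changes were 1.99 and -1.49 (adjusted p = 0.0503 and 0.122), and the difference of 3.48 (2.16 to 4.80) had an adjusted p of 0.126. With 1 array left out the adjusted p of the difference ran from 0.0385 to 0.436. It passed only without the second p53+/+ DMSO array, which was the highest of its group. DDIT4, an inhibitor of mTORC1, read 8.25, 9.78 and 9.52, then 9.99, 9.94 and 10.88 in p53+/+ cells, and 10.96, 11.07 and 10.59, then 9.43, 8.55 and 9.13 in p53-/- cells. DDIT4 fell 3.57-fold in p53-/- cells (adjusted p = 0.0393) and gave 1.08 in p53+/+ cells (adjusted p = 0.25), a difference of 2.92 (1.68 to 4.15, adjusted p = 0.201).

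The other two members of this set were less firm. PRRG2, a membrane protein with a Gla domain, gave 1.46 and -1.24, a difference of 2.70 (1.70 to 3.70, adjusted p = 0.125), and neither change passed (adjusted p = 0.0586 and 0.0831). STK11, the LKB1 kinase, read 8.18, 9.75 and 9.16 in p53+/+ DMSO against 9.76, 10.01 and 10.55 with INZ, so its groups were only just apart, and 10.53, 9.79 and 9.71 in p53-/- DMSO against 8.99, 8.40 and 9.52 with INZ. The difference for STK11 was 2.12 (0.85 to 3.39, adjusted p = 0.731).

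These counts turned on single arrays. Leaving out the first p53-/- INZ array gave 12 features up in p53+/+ and down in p53-/- cells, and leaving out the third p53+/+ INZ array gave 14 features in the opposite pattern in place of 0. Without both arrays that stood apart there were 15 and 22. Among the 15 then were GDF15, SESN2, PRRG2 and also DDIT3 (1.30 and -2.41) and BBC3 (1.11 and -1.37), a p53 target that drives apoptosis. The 22 were led by INSIG1, described below. Groups of fewer arrays overlap less readily, and its part in these counts was not tested.

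The p53 targets were next taken as 3 lists of genes fixed by name, 69 of whose 72 distinct members were measured. At an unadjusted p under 0.05 the difference was positive for 34 of them and negative for 0, against 2.88% and 2.02% of all genes, and the median difference was 1.26 against 0.04 over all genes. After adjustment over all features the members past the test were TP53I3, GDF15 and, on its dimmer feature, CDKN1A. The lists were drawn up with earlier results of these data known, so these counts describe the list and carry no test.

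Among the 20 arrest and repair targets, 14 had a positive difference at that level, the median was 1.53, and INZ raised 9 in p53+/+ cells and 0 in p53-/- cells (0.692% and 0.396% of all genes rose there). BTG2, an antiproliferative factor, read 6.09, 8.23 and 8.53, then 10.95, 10.49 and 11.09 in p53+/+ cells, and 8.04, 7.48 and 8.38, then 7.54, 7.96 and 8.22 in p53-/- cells. BTG2 rose 9.37-fold in p53+/+ cells (adjusted p = 0.0113), where the INZ arrays lay above all others, and its difference was 3.29 (1.74 to 4.83, adjusted p = 0.358). The first p53+/+ DMSO array was the low one, as it was for PLK3, PPM1D, NINJ1, FAS and TNFRSF10B. DDB2, a damage recognition factor of nucleotide excision repair, was tighter, at 10.48, 10.54 and 10.39, then 12.11, 12.26 and 12.25 in p53+/+ cells and 10.01, 9.74 and 9.78, then 10.26, 9.92 and 9.53 in p53-/- cells, a difference of 1.68 (0.90 to 2.46, adjusted p = 0.335). PPM1D, a phosphatase that dampens p53 signalling, rose 4.74-fold in p53+/+ cells (adjusted p = 0.00863), with a change of 0.54 in p53-/- cells and a difference of 1.70.

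The 20 apoptosis targets were more mixed, with 8 positive at that level and a median of 0.71. INZ raised 4 of them in p53+/+ cells (0.692% of all genes), TP53I3, TNFRSF10C, FAS and PMAIP1. FAS, a death receptor, gave 2.24 and 0.40, and PMAIP1, a BH3-only protein, 1.38 and -0.10. BBC3, another BH3-only protein, owed its difference of 1.88 (0.75 to 3.0) mainly to p53-/- cells, at 0.50 and -1.37, neither past the test (adjusted p = 0.563 and 0.0907). At any p, the difference was positive for 15 of the 20. The most negative was that of AIFM2, which protects from ferroptosis, at -1.17 (-2.66 to 0.31). AIFM2 rose 4.96-fold in p53-/- cells (adjusted p = 0.0315) and gave 1.14 in p53+/+ cells.

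In the feedback and metabolism list of 31 genes, 13 were positive at that level and the median was 1.26. Besides GDF15 and TNFRSF10C, DRAM1, a lysosomal regulator of autophagy, had a difference of 1.74 (0.80 to 2.68, adjusted p = 0.591). MDM2 was dim on this array, between 4.90 and 6.60, and its difference of 0.16 (-1.09 to 1.40) turned to -0.37 without the third p53+/+ INZ array, so nothing can be read from it.

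Single arrays weighed on these medians too. The feedback list gave 0.73 without the first p53+/+ DMSO array and 0.66 without both arrays that stood apart, the apoptosis list 1.15 without the third p53+/+ DMSO array and 1.08 without the second p53+/+ INZ array, and the arrest and repair list 1.02 without both. All stayed above the median over all genes.

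TCEA3, the elongation factor TFIIS.h that the study is about, read 8.65, 8.02 and 8.56 in p53+/+ DMSO, 9.52, 9.61 and 8.85 in p53+/+ INZ, 7.41, 8.17 and 7.24 in p53-/- DMSO and 8.72, 8.27 and 7.64 in p53-/- INZ. The INZ arrays lay above the DMSO arrays in p53+/+ cells and overlapped them in p53-/- cells. The changes were 0.92 and 0.60, neither past the test (adjusted p = 0.267 and 0.507), and the difference was 0.32 with an interval of -0.77 to 1.40 (adjusted p = 1), which leaves room for no difference and for one of more than 2-fold. With 1 array left out the difference for TCEA3 was 0.03 (without the third p53-/- INZ array) to 0.57 (without the first), and it was 0.68 without the 2 arrays that stood apart. BAX, the apoptosis gene of the same study, had 3 features with differences of 1.59 (-0.11 to 3.30), 0.83 (-0.50 to 2.15) and 0.58 (-1.0 to 2.15). On all 3 the p53+/+ INZ arrays lay above the DMSO arrays, and the p53-/- groups overlapped. In the same order the changes in p53+/+ cells were 2.43, 1.31 and 1.55 (adjusted p = 0.0648, 0.194 and 0.196). Those in p53-/- cells were also positive, at 0.84, 0.49 and 0.97 (adjusted p = 0.562, 0.692 and 0.448). None of the changes and none of the differences passed.

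**Figure D4:**
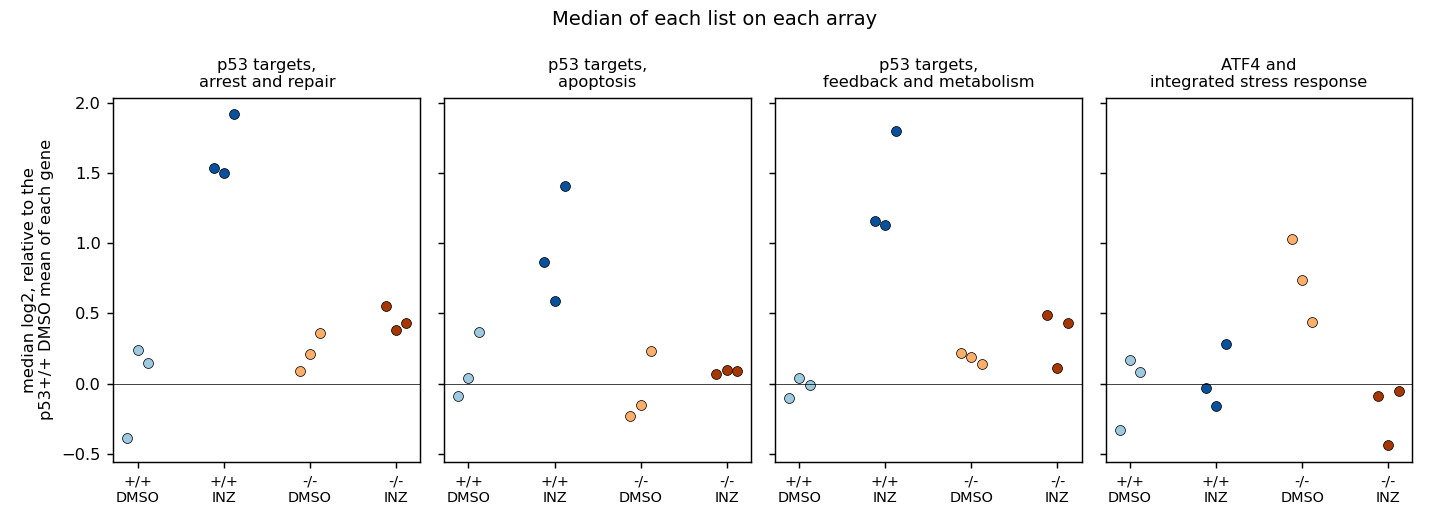
Median log2 level of the genes in 4 lists on each array, relative to each gene's mean in p53+/+ DMSO (y axis), by genotype and treatment (x axis; points are arrays). The 3 p53 lists are highest in p53+/+ INZ, while the ATF4 list is highest in p53-/- DMSO (0.44 to 1.03) and lies at -0.44 to -0.05 in p53-/- INZ.

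The ATF4 and integrated stress response list had a positive difference of another make. Of its 37 measured genes 15 were positive at an unadjusted p under 0.05 and 0 negative, and the median difference was 0.86, but the median change was -0.03 in p53+/+ cells and -0.84 in p53-/- cells. By the adjusted test INZ lowered 10 of the 37 in p53-/- cells (1.16% of all genes fell there), raised 0, and changed 0 in p53+/+ cells (0.355% of all genes fell there). The 10 were CHAC1, DDIT3, TRIB3, NUPR1, DDIT4, CEBPB, PPP1R15A, ASNS, SLC7A11 and SLC7A5. No member passed the test of the difference after adjustment. The median difference of the list was 0.57 without the first p53+/+ DMSO array, 0.56 without the third p53+/+ INZ array, 0.41 without both and 0.51 with array weights.

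The array medians show where the list stood. Relative to the p53+/+ DMSO mean of each gene, they were 1.03, 0.74 and 0.44 in p53-/- DMSO and -0.09, -0.44 and -0.05 in p53-/- INZ, against -0.33, 0.17 and 0.08 in p53+/+ DMSO and -0.03, -0.16 and 0.28 in p53+/+ INZ. Only untreated p53-/- cells stood apart, above all 9 other arrays. The median gap p53+/+ minus p53-/- was -0.60 with DMSO and 0.14 with INZ. With DMSO 4 members were lower in p53+/+ cells by the test and 0 higher (0.116% and 0.157% of all genes), and with INZ 0 were lower and 1, NUPR1, higher (0.0989% and 0.57%). These gaps share their arrays with the difference and are no separate evidence for it.

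CHAC1, which degrades glutathione, was the member of smallest p. It read 7.91, 9.11 and 8.01 in p53+/+ DMSO and 8.58, 8.51 and 10.02 in p53+/+ INZ, 11.56, 10.99 and 11.13 in p53-/- DMSO and 8.55, 7.84 and 8.32 in p53-/- INZ. The untreated p53-/- arrays lay above all others, and with INZ they overlapped the p53+/+ arrays, with 1 below all of those. CHAC1 fell 7.94-fold in p53-/- cells (adjusted p = 0.00304) and gave 0.69 in p53+/+ cells (adjusted p = 0.483), a difference of 3.68 (2.39 to 4.97, adjusted p = 0.0951). With 1 array left out the adjusted p ran from 0.0408 to 0.397. Among those fits it passed only without the second p53+/+ DMSO array, which was the highest of its group. The difference for CHAC1 also passed with a mean-variance trend, with array weights and with each array's lower quartile in the model. It did not pass in 18 of 22 alternatives. The gap p53+/+ minus p53-/- was -2.88 with DMSO (adjusted p = 0.015) and 0.80 with INZ (adjusted p = 0.551).

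DDIT3, the death-associated factor CHOP, had the same shape. It read 8.63, 7.90 and 7.51, then 8.92, 9.09 and 7.70 in p53+/+ cells, and 10.39, 10.80 and 10.80, then 8.76, 8.41 and 7.58 in p53-/- cells. DDIT3 fell 5.32-fold in p53-/- cells (adjusted p = 0.00954), and the difference was 2.97 (1.70 to 4.24, adjusted p = 0.213). With 1 array left out its adjusted p was 0.0947 to 0.68. The difference was 3.71 (adjusted p = 0.0229) without the 2 arrays that stood apart. Of these, the third p53+/+ INZ array had been the lowest of its group and the first p53+/+ DMSO array the highest. The difference for DDIT3 also passed with array weights and with each array's lower quartile in the model, and did not pass in 19 of 22 alternatives. TRIB3, a pseudokinase that inhibits AKT and ATF4, read 10.79, 10.67 and 10.90 in p53-/- DMSO and 8.36, 8.60 and 7.98 with INZ, a 5.54-fold fall (adjusted p = 0.00127), while in p53+/+ cells 8.60, 9.34 and 9.09 went to 8.11, 8.60 and 8.98.

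Other members parted from that shape. NUPR1, a stress-induced chromatin protein, was alike in the untreated genotypes, with 9.77, 8.53 and 8.80 for p53+/+ DMSO and 9.30, 9.32 and 8.93 for p53-/- DMSO, and only the p53-/- INZ arrays were low, at 6.89, 6.02 and 6.02. ASNS and SLC7A11, which make asparagine and import cystine, fell 4.69-fold and 7.02-fold in p53-/- cells (adjusted p = 0.00352 and 0.0044), and their changes in p53+/+ cells had the same sign, at -1.22 and -1.56, neither past the test. Their differences were 1.01 (0.02 to 2.00) and 1.25 (-0.04 to 2.55). ATF4 mRNA itself gave 0.36 and -1.23, neither past the test, a difference of 1.59 (0.27 to 2.90).

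Some of these genes carry, upstream of an annotated start, the motif TGATGNAA, by which C/EBP and ATF factors bind stress genes. It was searched on both strands in the 250 bases before each start of the RefSeq promoters (GRCh38.p14). Of the 27305 genes there, 3.89% had it at 1 or more starts. Of the 29 ATF4 list genes with an entry, 6 had it (ASNS, CEBPG, CHAC1, FGF21, JDP2 and SLC1A5), and of the 10 with an entry among the 15 genes of smallest p with a positive difference, 3 had it (ATF3, CHAC1, SYTL1). They are shown because CHAC1 and SYTL1 fell in p53-/- cells and ATF3 passed the test of the difference; capitals mark the match, which describes the letters only. The windows are chr15:40953221-40953470 for CHAC1, chr1:212565157-212565406 for 1 start of ATF3 and chr1:27341772-27342021 for SYTL1, all on the + strand.
CHAC1: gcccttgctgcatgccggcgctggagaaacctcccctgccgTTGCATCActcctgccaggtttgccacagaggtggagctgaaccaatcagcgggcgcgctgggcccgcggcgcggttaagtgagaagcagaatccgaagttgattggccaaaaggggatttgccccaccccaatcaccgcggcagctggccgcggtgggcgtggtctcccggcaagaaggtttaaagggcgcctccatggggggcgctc
ATF3: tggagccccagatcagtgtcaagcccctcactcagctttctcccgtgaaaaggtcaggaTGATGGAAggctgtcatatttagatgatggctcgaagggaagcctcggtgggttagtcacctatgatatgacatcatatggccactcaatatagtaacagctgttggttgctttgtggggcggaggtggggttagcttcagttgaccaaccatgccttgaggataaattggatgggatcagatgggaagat
SYTL1: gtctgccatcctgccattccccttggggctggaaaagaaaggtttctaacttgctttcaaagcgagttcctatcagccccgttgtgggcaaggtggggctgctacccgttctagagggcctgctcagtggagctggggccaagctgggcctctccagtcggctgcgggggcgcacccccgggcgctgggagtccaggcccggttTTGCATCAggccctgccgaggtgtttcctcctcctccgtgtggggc

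The match starts 209, 191 and 46 bases before the start of CHAC1, ATF3 and SYTL1. AREG was the 1 gene of the 10 with the cAMP response element TGACGTCA in its window, against 2.03% of all genes. It is shown for that match, on the + strand at chr4:74444886-74445135.
AREG: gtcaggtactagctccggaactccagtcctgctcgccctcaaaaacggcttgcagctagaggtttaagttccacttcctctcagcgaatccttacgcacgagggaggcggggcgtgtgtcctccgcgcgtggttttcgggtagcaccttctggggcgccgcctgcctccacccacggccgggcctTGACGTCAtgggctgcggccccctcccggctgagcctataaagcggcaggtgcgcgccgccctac

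The p53 half-site was in the window of 0 of the 10 genes and of 6.8% of all genes. Of 12 genes with an entry among the 15 of smallest p with a negative difference, 1 had it (TRIM10). It was in 2 of 16 arrest and repair targets (PLK2 and SESN1) and 1 of 17 apoptosis targets (FAS). In the feedback and metabolism list it was in 3 of 23 (FDXR, RPS27L and SLC12A4). The motif TGATGNAA was in 2 of 16 (PLK3 and PTP4A1), 0 of 17 and 0 of 23 genes of these lists. No match says only that these letters are not in this window.

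In the other direction no gene passed. The 15 genes of smallest p with a negative difference ran from -1.54 to -2.36, with adjusted p from 0.126 to 0.740. They were dimmer than the positive set, with a median of 7.01 against 10.52 for the level of the highest group, and for 11 of the 15 that level was under 8. By the test 4 of them rose in p53-/- cells (SERPINF2, RBM15, FANCD2OS and STIL; 0.396% of all genes rose there), 4 fell in p53+/+ cells (RNF168, TRIM10, CDRT15 and CAB39L; 0.355% of all genes fell there), and 7 did neither. These genes too were ranked by the difference, which shapes such counts.

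SERPINF2, the main inhibitor of plasmin, was the brightest of these and had the smallest p. It read 9.06, 9.65 and 9.18 in p53+/+ DMSO and 9.71, 10.19 and 9.75 with INZ, and 7.33, 7.54 and 7.13 in p53-/- DMSO and 10.20, 9.85 and 10.78 with INZ. Untreated p53-/- cells lay below all other arrays, and the p53-/- INZ arrays overlapped the p53+/+ INZ arrays and reached above them. SERPINF2 rose 7.69-fold in p53-/- cells (adjusted p = 0.000303), gave 0.59 in p53+/+ cells (adjusted p = 0.395), and the difference was -2.36 (-3.27 to -1.44, adjusted p = 0.126).

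STIL, a factor of centriole duplication, read 7.18, 6.79 and 6.89, then 6.74, 6.85 and 7.31 in p53+/+ cells, and 6.88, 6.58 and 6.69, then 8.04, 8.51 and 8.36 in p53-/- cells. It rose 3.0-fold in p53-/- cells (adjusted p = 0.00769) and its 3 INZ arrays there lay above all others. RBM15, an RNA-binding protein, had the same shape, with a change of -0.23 in p53+/+ cells (adjusted p = 0.761) and a 2.98-fold rise in p53-/- cells (adjusted p = 0.0133). RNF168, a ubiquitin ligase of the DNA damage response, read 6.96, 6.69 and 6.39 in p53+/+ DMSO and 5.25, 4.94 and 5.19 with INZ. Its INZ arrays lay well below the median feature, in a range where intensities are least certain.

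INSIG1, which holds back sterol synthesis, read 6.68, 7.60 and 8.14 in p53+/+ DMSO, 6.38, 5.18 and 8.10 in p53+/+ INZ, 7.82, 7.61 and 7.87 in p53-/- DMSO and 8.93, 9.07 and 9.07 in p53-/- INZ. The p53-/- arrays were tight and the p53+/+ arrays were not, with the third INZ array at the level of the highest DMSO array. The difference was -2.18 (-3.86 to -0.49, adjusted p = 0.981), and -3.34 (adjusted p = 0.0456) without the 2 arrays that stood apart. With any 1 array left out it did not pass (adjusted p of 0.157 or more). In the cholesterol synthesis list of 23 genes, INSIG1 and IDI1 were negative at an unadjusted p under 0.05 and 0 positive, with a median difference of -0.21.

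Most other lists lay near the background of 2.88% positive and 2.02% negative. In the AP-1 and immediate early list 4 of 35 were positive (ATF3, BHLHE40, FOSL1 and KLF4) with a median of 0.37, and the cytosolic aminoacyl-tRNA synthetases had a median of 0.47 with 1 gene at that level in each direction, SARS1 at 1.43 and FARSB at -1.23. Medians were 0.10 for G2/M and mitosis, 0.22 for DNA replication, 0.12 for RNA polymerase II elongation, -0.01 for ribosome biogenesis, 0.14 for ribosomal proteins and 0.16 for ER chaperones and the unfolded protein response. Medians were likewise 0.14 for NRF2 and glutathione, 0.08 for interferon and antigen presentation, 0.20 for glycolysis and hypoxia, -0.07 for heat shock, -0.12 for aryl hydrocarbon receptor targets, 0.05 for inflammatory caspases, 0.10 for cytokines and NF-kB targets and 0.24 for housekeeping genes. Of marker lists, colon epithelium had a median of -0.23, mesenchymal genes -0.03 and leukocyte genes -0.10. In the elongation list ELL2, a subunit of the super elongation complex, was the member of smallest p. Its difference of 1.72 (0.62 to 2.82) did not pass (adjusted p = 0.815). ELL2 rose 3.22-fold in p53+/+ cells (adjusted p = 0.0471), where the DMSO arrays read 6.10, 6.16 and 7.61.

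**Figure D5:**
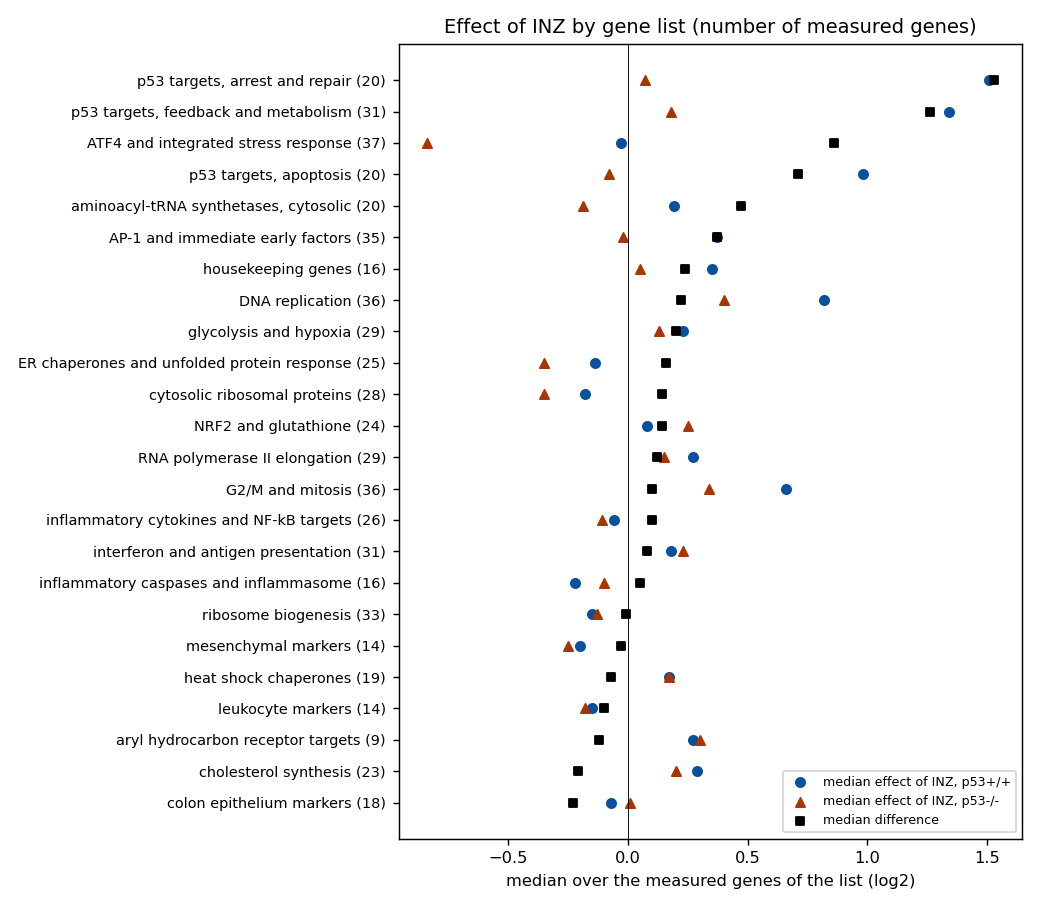
Median over the measured genes of each of the 24 lists (number in brackets) of the change from DMSO to INZ in p53+/+ cells (blue circles) and p53-/- cells (brown triangles) and of their difference (black squares), on the log2 scale. The p53 lists have medians of 0.71 to 1.53 from a shift of the blue circle, the ATF4 list 0.86 (0.41 without the 2 arrays that stood apart) from a shift of the brown triangle, and the other lists lie between -0.23 and 0.47.

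Where both genotypes responded in the same direction, the difference could be smaller than either response. MAD1L1, a spindle checkpoint gene, read 11.94, 12.14 and 11.72, then 9.62, 9.93 and 10.08 in p53+/+ cells, and 11.60, 11.44 and 11.31, then 8.49, 8.22 and 7.84 in p53-/- cells. It fell 4.16-fold in the former and 9.63-fold in the latter (adjusted p = 0.00365 and 4.83e-05), and the difference of 1.21 (0.40 to 2.02) did not pass (adjusted p = 0.841). Over all features the changes in the 2 genotypes correlated at 0.554, and at 0.252 without the 2 arrays that stood apart; features are not independent replicates, and all share the arrays.

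Over the 495 genes with a positive difference at an unadjusted p under 0.05, the change was larger in p53+/+ cells for 279 and in p53-/- cells for 216, and its sign was opposite in 329. INZ passed the adjusted test in p53+/+ cells only for 69, in p53-/- cells only for 67, in both for 10 and in neither for 349. Of the 347 genes with a negative difference at that unadjusted level the change was larger in p53+/+ cells for 181 and in p53-/- cells for 166. In the same order 8, 24, 0 and 315 passed. Genes chosen by the difference tend to have changes of opposite sign, so these counts describe the choice and nothing is read from them. By the adjusted test 0.692% of all genes rose with INZ in the p53+/+ genotype and 0.355% fell; in the p53-/- genotype the shares were 0.396% and 1.16%.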

How the data were processed

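RNA of HCT116 cells was measured on 12 one-colour arrays. The deposited values, 1 linear intensity per feature and array made by the authors, per the submitters' processing notes were made by RMA (background correction, normalisation between arrays, probe summary), a step that can shrink differences at low signal. For RMA, the version and settings were not given in the sources used here. Intensities, from 16.2 to 61942, with array medians of 87.1 to 93.9, were taken to log2 with no pseudocount. No read depth applies, and precision is limited by the number of arrays. Features were named from the platform table (18188) or their accession (678), and the feature of highest mean stood for a gene with several.

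Differences were tested with limma 3.58.1 in R 4.3.3 (lmFit and eBayes, 4 group means over 12 arrays), two-sided, with Benjamini-Hochberg adjustment over 45033 features, at 0.05, and the procedure was tested on simulated data. The named genes were those past the test, the 15 of smallest p in each direction whose highest group lies above the median feature, up to 10 in each opposite pattern, 4 members of each of 24 lists, and the study's own genes (TCEA3, BAX, CDKN1A, MDM2); some genes the rule names are not reported here; further list members named were chosen after their values were seen. Members, lists, rules and alternatives were chosen with earlier results of these data known. Plots were made in Python 3.11.15 (matplotlib 3.10.9).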

Additional observations from a re-analysis of the deposited data

Results flagged for a closer look

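A difference between the INZ effects of the 2 genotypes was found by limma's test of the difference itself for TP53I3 (4.37 and 4.47 on its 2 features), AF218028 (4.19), BC112941 (3.92), GDF15 (3.39), ATF3 (3.38), BC008962 (3.34) and CDKN1A (2.44), all on the log2 scale and all in the same direction. SESN2 (3.48), DDIT4 (2.92), PRRG2 (2.70) and STK11 (2.12) were marked by the rule for opposite directions. Every INZ array lay above every DMSO array in p53+/+ cells and below in p53-/- cells. The change was also at least 1 on the log2 scale in both genotypes. For these 4 the test of the difference did not pass.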

How the results depend on the processing

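The 8 features with a positive difference were 15 with a mean-variance trend, 28 with array weights and 22 with each array's lower quartile in the model, and 7 to 9 with 1 array left out. The 0 features with a negative difference were 0 to 1 with 1 array left out (1 without the second p53+/+ DMSO array), 1 without both arrays that stood apart and 2 with array weights. Deviations of same-numbered arrays correlated at -0.189 to 0.332, with a median of 0.0106 over 18 pairs. Those of other-numbered arrays correlated at -0.359 to 0.281, with a median of -0.0183 over 36 pairs. This shows little pairing by replicate number but cannot tell whether same-numbered samples were handled together. The replicate block gave 7 positive features, all among the 8, and 0 negative.

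Features up in p53+/+ and down in p53-/- cells, 6 in all, were 4 to 12 with 1 array left out, 15 without both arrays, 51 at a minimum change of 0.5 and 0 at 1.5. The opposite pattern, 0 in all, gave 0 to 14 with 1 array left out, 22 without both and 21 at 0.5. The INZ effect in p53+/+ cells (388 features) gave 81 to 1185 with 1 array left out, with 81 without the first INZ array and 1185 without the third DMSO array, 166 without both arrays, 90 with 1 variance per genotype, 129 with the lower quartile and 207 on 1 mean value per gene. In p53-/- cells (666 features) the counts were 229 to 1313, 2525 without both, 2996 with array weights, 2158 with 1 variance per genotype and 294 on 1 mean value per gene.

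The median difference of the arrest and repair list was 1.22 to 1.68 with 1 array left out and 1.02 without both arrays, that of the apoptosis list 0.50 to 1.15 with 1 array left out, and that of the feedback list 0.73 to 1.35, with 0.66 without both and 0.78 with array weights. That of the ATF4 list was 0.56 to 0.98, with 0.41 without both and 0.51 with array weights. The difference for MDM2 (0.16) was -0.37 to 0.48 with 1 array left out, -0.16 without both and -0.01 with array weights, and without both it was -0.41 for RPL4 and -0.05 for UTP20. For none of these changes was the cause tested. Of 2710 values of named features under the alternatives, 2658 kept their direction and side of the threshold. Features far from the threshold could hardly change sides, so this share says little about those near it. Of the 124 features, 17 changed sides at least once, and the dimmer CDKN1A feature did not pass in 15 of 22 alternatives. The spread between replicates was larger in p53+/+ cells (median SD 0.421 and 0.398) than in p53-/- cells (0.307 and 0.308), and without dim features the counts were again 8 and 0.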
